A study of Mus musculus with 9 samples.

Results

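The genes described here are those of fatty acid transporters, long-chain acyl-CoA synthetases and the acyl-CoA binding protein. Members were all probe sets whose platform annotation symbol was one of 10 listed genes. Cd36, Slc27a1, Slc27a3, Slc27a4, Acsl3, Acsl4, Acsl5, Acsl6 and Dbi were found, 9 of the 10, with 20 of the 34945 probe sets that carried 1 gene symbol. No probe set carried the symbol Acsl1 in the annotation used, so Acsl1 was not analysed here. Total RNA of NIH-CAR cells, a variant of the NIH 3T3 mouse fibroblast line at passage 12, was measured on 9 Affymetrix arrays, 3 in each group. In the first group the adenovirus (AdHA-PPARgCDE) encoded PPARγ2 without its A/B-domain, the deleted receptor, and the cells then received 1 µM of the PPARγ agonist rosiglitazone. In the second group the adenovirus (AdHA-PPARg2) encoded full-length PPARγ2, again with 1 µM rosiglitazone. In the third group the virus (AdEmpty) carried an empty vector and the cells received the vehicle, DMSO. Every group was exposed to adenovirus for 2 h. Receptor and agonist changed together against empty vector, so their shares in a difference cannot be told apart.

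Long-chain fatty acids cross the plasma membrane with the help of CD36, a scavenger receptor, and of the fatty acid transport proteins encoded by the Slc27a genes. Acyl-CoA synthetases then join them to coenzyme A, which traps them in the cell and prepares them for storage, membrane synthesis or oxidation. The acyl-CoA binding protein, product of Dbi, carries the resulting esters in the cytosol. PPARγ is a nuclear receptor that drives adipocyte differentiation. It binds DNA with RXR at direct repeats of a hexamer spaced by a single base, and Cd36, Slc27a1, Acsl1 and Dbi are among its known targets in adipocytes or macrophages.

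The sequences upstream of Acsl4 and Cd36 are shown because Acsl4 was the member with the largest differences from empty vector and Cd36 is a well-known PPARγ target among the 9 members. Each covers the 250 bases before the RefSeq transcript start in GRCm38.p6, on the minus strand, and capitals mark the hexamer AGGTCA or its reverse complement. The Acsl4 sequence lies at chrX:142390536-142390785 and the Cd36 sequence at chr5:17835897-17836146.
Acsl4: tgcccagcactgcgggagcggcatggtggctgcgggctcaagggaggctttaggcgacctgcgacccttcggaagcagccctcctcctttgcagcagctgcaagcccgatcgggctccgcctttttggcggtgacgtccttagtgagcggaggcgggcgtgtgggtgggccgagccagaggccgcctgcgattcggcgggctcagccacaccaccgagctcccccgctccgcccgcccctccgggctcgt
Cd36: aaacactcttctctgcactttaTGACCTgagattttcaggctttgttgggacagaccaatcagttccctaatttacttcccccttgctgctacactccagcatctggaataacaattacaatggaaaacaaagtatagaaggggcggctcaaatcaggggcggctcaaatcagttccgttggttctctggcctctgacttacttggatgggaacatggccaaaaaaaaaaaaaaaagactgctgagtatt
RefSeq promoter windows, from 250 bases before to 50 bases after a transcript start, were at hand for all 10 listed genes, 16 windows in all. The direct repeat AGGTCANAGGTCA was found, on either strand, in 0 of the 16 windows, against 0.0396% of 32851 windows of all genes. The looser form AGGNCANAGGNCA, which includes the first, was also found in 0 of 16, against 0.381%. The single hexamer AGGTCA, which is contained in the first form, was present in 2 windows, those of Cd36 and of 1 Acsl6 start, against 16.3% of all windows. In Cd36 it began 228 bases before the start, on the opposite strand. A match or its lack describes these windows only.

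All levels and differences are in log2 units of the deposited table. Means carry the SD of 3 arrays, differences carry the standard error (SE) of the limma fit, and p-values are from limma, adjusted over 18193 genes. Array medians ran from 6.68 to 6.90. The 3 arrays numbered 3 stood apart on the first principal component (38.1% of the variance), at 20.6 to 42.5, with the other 6 arrays all lower. The 18S ribosomal control probe sets averaged 7.59 to 8.67 on those 3 arrays and 10.5 to 12.4 on the other 6, and the part of this in any result was not tested. Pparg, for which transgene and endogenous RNA are read by one probe set, was at 11.34 ± 0.63 with the deleted receptor, 11.25 ± 0.84 with the full-length receptor and 7.06 ± 0.10 with empty vector. Of the fibroblast markers Vim was the highest, at 14.13 with the deleted receptor, 14.16 with the full-length receptor and 14.08 with empty vector. Lum was the lowest, at 6.17 with the deleted receptor, 6.29 with the full-length receptor and 6.34 with empty vector. None of the 11 was called in any comparison. Pdgfra, Thy1 and Dcn, which differed most, were at -0.15, -0.25 and -0.01 with the deleted receptor and -0.44, -0.32 and -0.32 with the full-length receptor against empty vector. The labels do not say whether the arrays of a group came from separate cultures, so the spread behind the p-values may be technical. In bulk RNA, fewer cells of a type and less RNA per cell cannot be told apart.

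None of the 9 genes changed by the criterion of an adjusted p under 0.05, in any of the 3 comparisons. The 0 of 9 with the deleted receptor against empty vector compares with 0.17% of all genes called, the 0 of 9 with the full-length receptor against empty vector with 0.654%, and the 0 of 9 between the receptors with 0% of all genes. At an unadjusted p under 0.05 there were 0 members with the deleted receptor (3.79% of all genes), 2 with the full-length receptor (6.19%) and 0 between the receptors (1.52%). The limma F test over the 3 groups called 0 of 9, against 0.418% of all genes. The median difference of the 9 members was 0.12 with the deleted receptor and 0.06 with the full-length receptor against empty vector, where the median of all genes was -0.03 and 0.0032. Between the receptors the members' median was 0.02 and that of all genes was -0.01. The 2 comparisons with empty vector share their control arrays.

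**Figure D1:**
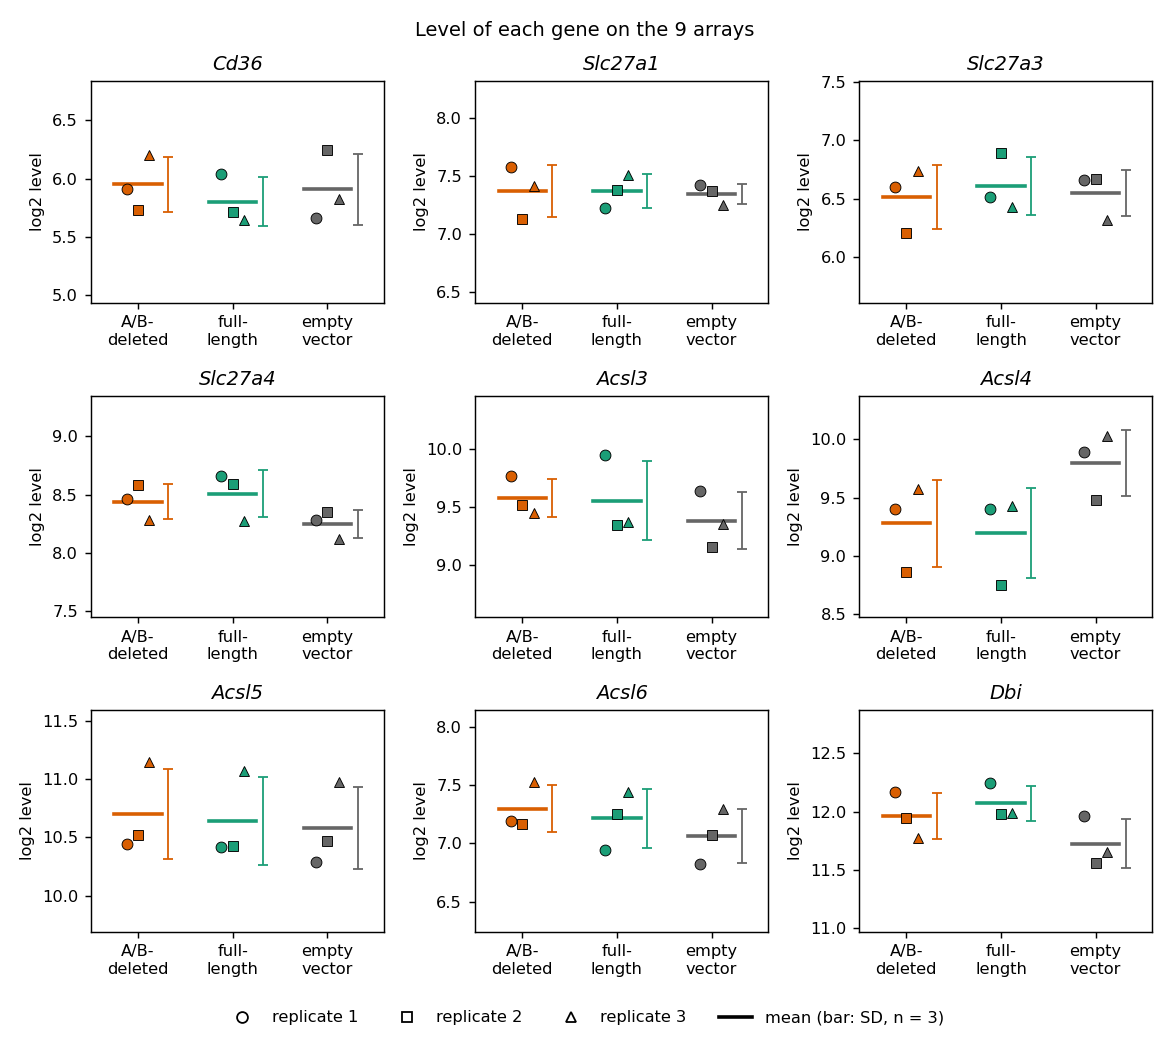
Log2 level of each of the 9 genes (probe set with the highest mean) on each array, by group, with the symbol giving the replicate number, the bar the mean and the error bar the SD of 3 arrays. Every panel spans the same range of log2 units. In Acsl4 all full-length arrays lie below all empty-vector arrays, in Dbi all lie above them, and in Acsl5 replicate 3 is the highest in every group.

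No transporter gene was called in any comparison. Cd36, the scavenger receptor, read 5.91, 5.73 and 6.21 with the deleted receptor, 6.04, 5.72 and 5.65 with the full-length receptor, against 5.66, 6.25 and 5.82 with empty vector. The groups overlapped, and every one of these values lay below the lowest array median, 6.68. The table holds no detection calls, so this does not show that Cd36 was off, and differences of this probe set do not bound the change in Cd36 RNA. The difference from empty vector was 0.04 (SE 0.19, 95% interval -0.39 to 0.47, adjusted p = 1.00) with the deleted receptor. It was -0.11 (SE 0.19, 95% interval -0.54 to 0.32, adjusted p = 1.00) with the full-length receptor. Without the arrays numbered 3 the differences were -0.13 with the deleted receptor and -0.08 with the full-length receptor.

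The other Cd36 probe sets were made from the same source sequence as the first. On 1450884_at the values were 5.45, 5.30 and 5.38 with the deleted receptor, 5.16, 5.63 and 5.30 with the full-length receptor, against 5.62, 5.70 and 5.23 with empty vector. On 1450883_a_at they were 5.17, 4.81 and 4.53 with the deleted receptor, 5.18, 5.36 and 5.72 with the full-length receptor, against 5.43, 5.10 and 4.60 with empty vector. On the last of these the deleted-receptor arrays all lay below the full-length arrays, with a difference of -0.58 (SE 0.24, adjusted p = 1.00 over all probe sets, unadjusted p = 0.0387, limma). The same difference between receptors on the other Cd36 probe sets was 0.15 and 0.01, so the 3 did not move together. Every value on these probe sets lay below the lowest array median, 6.68. Cells that carry CD36 in other tissues were looked for by their markers. Of 10 macrophage markers 0 were called in any comparison, and their mean level was 6.51 to 6.64 with the deleted receptor, 6.68 to 6.82 with the full-length receptor and 6.68 to 6.85 with empty vector. Macrophage genes Cd14, Cd68 and Lyz2 had differences from empty vector of -0.58, -0.14 and -0.30 with the deleted receptor and -0.75, 0.25 and -0.07 with the full-length receptor. Csf1r was the highest of the 10, at 9.72 with the deleted receptor, 9.90 with the full-length receptor and 9.94 with empty vector. Over all arrays Ptprc read 5.92 to 6.64, Adgre1 6.47 to 6.98 and Itgam 5.87 to 6.26. Of 8 endothelial markers 0 were called, with mean levels of 5.68 to 5.96 with the deleted receptor, 5.85 to 6.10 with the full-length receptor and 5.75 to 6.10 with empty vector. Emcn, Pecam1 and Kdr, the 3 with the largest differences, were at 5.05, 5.94 and 6.48 with the deleted receptor, 5.57, 6.26 and 6.28 with the full-length receptor, against 5.24, 6.11 and 6.35 with empty vector. The endothelial means and every value of Ptprc and Itgam also lay below the lowest array median, 6.68. Without detection calls these levels show neither the presence nor the absence of such cells. The part of these levels in the Cd36 values was not tested.

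Slc27a1 encodes FATP1, the transporter best known from adipocytes and muscle. It read 7.57, 7.13 and 7.42 with the deleted receptor, 7.22, 7.38 and 7.51 with the full-length receptor, against 7.42, 7.37 and 7.25 with empty vector, with full overlap. The difference from empty vector was 0.03 (95% interval -0.28 to 0.34) with the deleted receptor and 0.02 (95% interval -0.29 to 0.34) with the full-length receptor (SE 0.14, adjusted p = 1.00 each). The difference between the receptors, 0.0033 (95% interval -0.31 to 0.31), was the smallest among the members. Its second probe set, 1435658_at, gave -0.02 with the deleted receptor and -0.14 with the full-length receptor against empty vector.

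Slc27a3, a family member with acyl-CoA synthetase activity, had 1 probe set. It read 6.60, 6.21 and 6.73 with the deleted receptor, 6.51, 6.89 and 6.43 with the full-length receptor, against 6.66, 6.67 and 6.32 with empty vector. The values overlapped throughout, and the differences were -0.04 with the deleted receptor and 0.06 with the full-length receptor against empty vector, and -0.10 between the receptors (SE 0.18, adjusted p = 1.00 each).

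Slc27a4, the gene of FATP4, also had 1 probe set. It read 8.46, 8.58 and 8.28 with the deleted receptor, 8.66, 8.59 and 8.28 with the full-length receptor, against 8.28, 8.35 and 8.12 with empty vector. Arrays of the same number were higher with either receptor than with empty vector in all 3 numbers, but the groups overlapped. The differences were 0.19 with the deleted receptor and 0.26 with the full-length receptor (SE 0.14, adjusted p = 1.00 each). The receptors differed by -0.07 (95% interval -0.38 to 0.24).

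**Figure D2:**
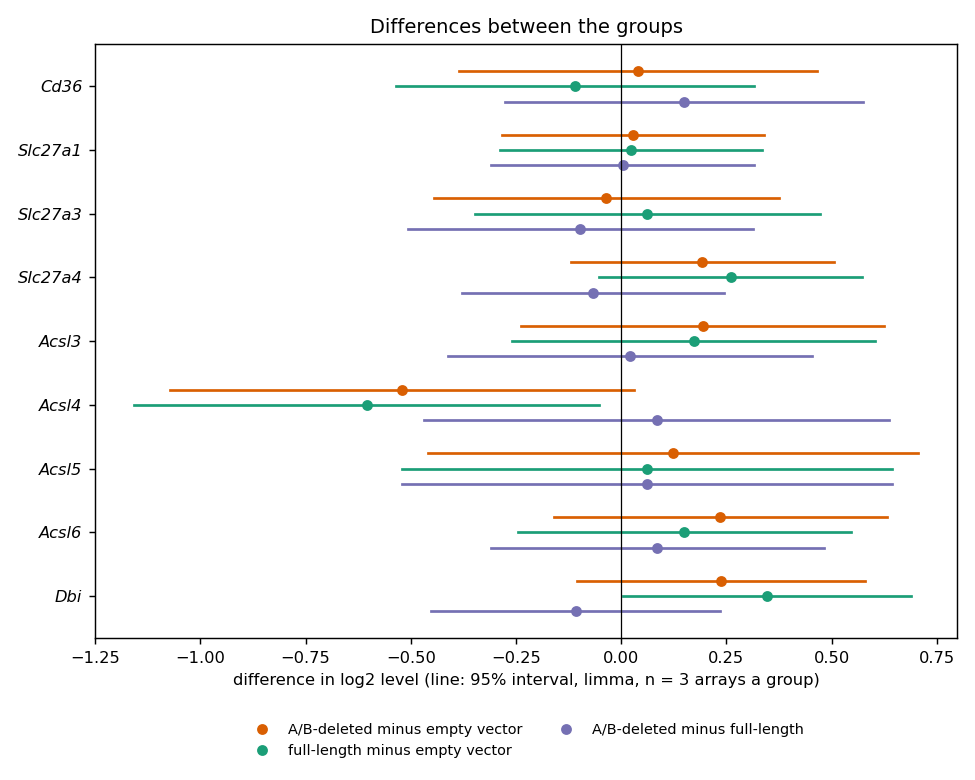
Difference in log2 level for each gene in the 3 comparisons, with the 95% interval from limma (3 arrays a group). The intervals of Acsl4 and Dbi for full-length receptor against empty vector lie to one side of 0, at -1.16 to -0.05 and 0.0037 to 0.69, before adjustment over all genes, and every other interval includes 0.

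Among the synthetases, Acsl4 had the largest differences. ACSL4 activates long-chain polyunsaturated fatty acids, arachidonic acid above all. Its level was 9.40, 8.86 and 9.57 with the deleted receptor, 9.40, 8.75 and 9.43 with the full-length receptor, against 9.89, 9.48 and 10.03 with empty vector. The full-length arrays all lay below the empty-vector arrays, and 1 deleted-receptor array lay within their range. The difference from empty vector was -0.52 (SE 0.25, 95% interval -1.07 to 0.03, adjusted p = 1.00) with the deleted receptor. It was -0.61 (SE 0.25, 95% interval -1.16 to -0.05, adjusted p = 0.701, unadjusted p = 0.0349, limma) with the full-length receptor. Linearly the level was 0.697 times that of empty vector with the deleted receptor and 0.657 times with the full-length receptor. The receptors differed by 0.08 (95% interval -0.47 to 0.64).

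The labels do not say what a replicate number marks. The numbers were taken to pair deleted-receptor with empty-vector arrays, as deviations from the group means correlated at 0.520 to 0.708. Arrays of different number were not compared, and the arrays numbered 3 stood apart in every group, so these correlations do not establish pairing. The blocked results rest on that pairing. The block was fitted to all 9 arrays, so they also rest on the numbers of the full-length arrays. Deviations of full-length and empty-vector arrays correlated at -0.121 to 0.631. Within the numbers 1, 2 and 3 the Acsl4 differences between deleted receptor and empty vector were -0.49, -0.62 and -0.45. With the replicate number as a block the standard error was 0.08, and Acsl4 passed the test at an adjusted p of 0.0471 (limma, over all genes). That made 1 of 9 members called, lower, where 0.912% of all genes were called and 0.253% were called lower in that fit. Values within each number were -0.49, -0.73 and -0.60 for the full-length receptor against empty vector, and -0.0012, 0.11 and 0.14 between the receptors. The blocked call for the deleted receptor was lost with the number as a random block (adjusted p = 0.508) and in 5 of 6 gene fits added after seeing the data. The adjusted p was 0.510, 0.824 and 0.147 without the arrays numbered 1, 2 and 3, 0.101 with the mean of the probe sets of each gene and 0.156 after subtracting array medians. It was 0.0352 after quantile normalization. In the blocked fits without the arrays numbered 1 or 2, 0 of all genes were called for the deleted receptor against empty vector. In the fit without the block, leaving out deleted-receptor replicate 2 moved the difference to -0.31, and leaving out full-length replicate 2 moved that of the full-length receptor to -0.38. Without the arrays numbered 3 the differences from empty vector were -0.55 with the deleted receptor and -0.61 with the full-length receptor.

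The 3 Acsl4 probe sets were all lower on average with either receptor than with empty vector. On 1418911_s_at the level was 8.07, 7.72 and 8.78 with the deleted receptor, 7.86, 7.41 and 8.25 with the full-length receptor, against 8.58, 7.88 and 9.01 with empty vector. On 1451828_a_at it was 7.60, 7.44 and 8.08 with the deleted receptor, 7.46, 7.03 and 7.88 with the full-length receptor, against 8.09, 7.62 and 8.39 with empty vector. Groups overlapped on both. Against empty vector these probe sets gave -0.30 and -0.33 with the deleted receptor and -0.65 and -0.58 with the full-length receptor. In the fit across all probe sets with the block, 0 of the 20 member probe sets were called for the deleted receptor against empty vector, where 0.558% of all probe sets were, and the first Acsl4 probe set had an adjusted p of 0.0705. Between the receptors the 3 gave 0.08, 0.35 and 0.25 (adjusted p = 1.00 each in the fit without the block).

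The genes whose 9 values followed Acsl4 most closely, among 3525 genes with an SD of at least 0.3 over the arrays, were Anxa3 (Pearson r = 0.985), Cenpq (0.980), Met (0.975), Ormdl1 (0.970) and Bcl7a (0.959). Met, the gene of the hepatocyte growth factor receptor, had differences from empty vector of -0.91 with the deleted receptor and -1.41 with the full-length receptor. In Anxa3, which encodes an annexin, they were -0.46 with the deleted receptor and -0.58 with the full-length receptor. These correlations run over the same 9 arrays, which share group and replicate number, and describe likeness only.

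Acsl3 encodes a synthetase of the endoplasmic reticulum and lipid droplets. It read 9.76, 9.52 and 9.45 with the deleted receptor, 9.95, 9.35 and 9.37 with the full-length receptor, against 9.64, 9.16 and 9.35 with empty vector. Replicate 1 was the highest in every group, and the groups overlapped. The differences from empty vector were 0.19 with the deleted receptor and 0.17 with the full-length receptor (SE 0.19, adjusted p = 1.00 each), with higher values in all 3 numbers for both receptors. Of its other probe sets, made from the same source sequence, 1452771_s_at gave 0.16 with the deleted receptor and 0.13 with the full-length receptor. Probe set 1428387_at read 6.26, 6.02 and 6.27 with the deleted receptor, 6.35, 5.84 and 5.51 with the full-length receptor, against 5.79, 5.89 and 5.97 with empty vector. There the deleted-receptor arrays all lay above the empty-vector arrays, at a difference of 0.30 (SE 0.20, adjusted p = 1.00). Every value of this probe set lay below the lowest array median, 6.68.

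Acsl5, a synthetase best known from intestine and liver, read 10.44, 10.52 and 11.14 with the deleted receptor, 10.42, 10.43 and 11.07 with the full-length receptor, against 10.29, 10.47 and 10.97 with empty vector. Replicate 3 was the highest in each group. The differences from empty vector were 0.12 with the deleted receptor and 0.06 with the full-length receptor (SE 0.26, adjusted p = 1.00 each). Without the arrays numbered 3 they were 0.10 with the deleted receptor and 0.04 with the full-length receptor. The interval between the receptors, -0.52 to 0.64, was the widest among the members in that comparison.

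Acsl6, known mainly from brain, read 7.19, 7.17 and 7.53 with the deleted receptor, 6.94, 7.25 and 7.44 with the full-length receptor, against 6.82, 7.07 and 7.29 with empty vector. Replicate 3 was again the highest in each group. The differences from empty vector were 0.24 with the deleted receptor and 0.15 with the full-length receptor (SE 0.18, adjusted p = 1.00 each), and every same-number difference was above 0. Its second probe set, 1451257_at, gave 0.21 with the deleted receptor and 0.10 with the full-length receptor.

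**Figure D3:**
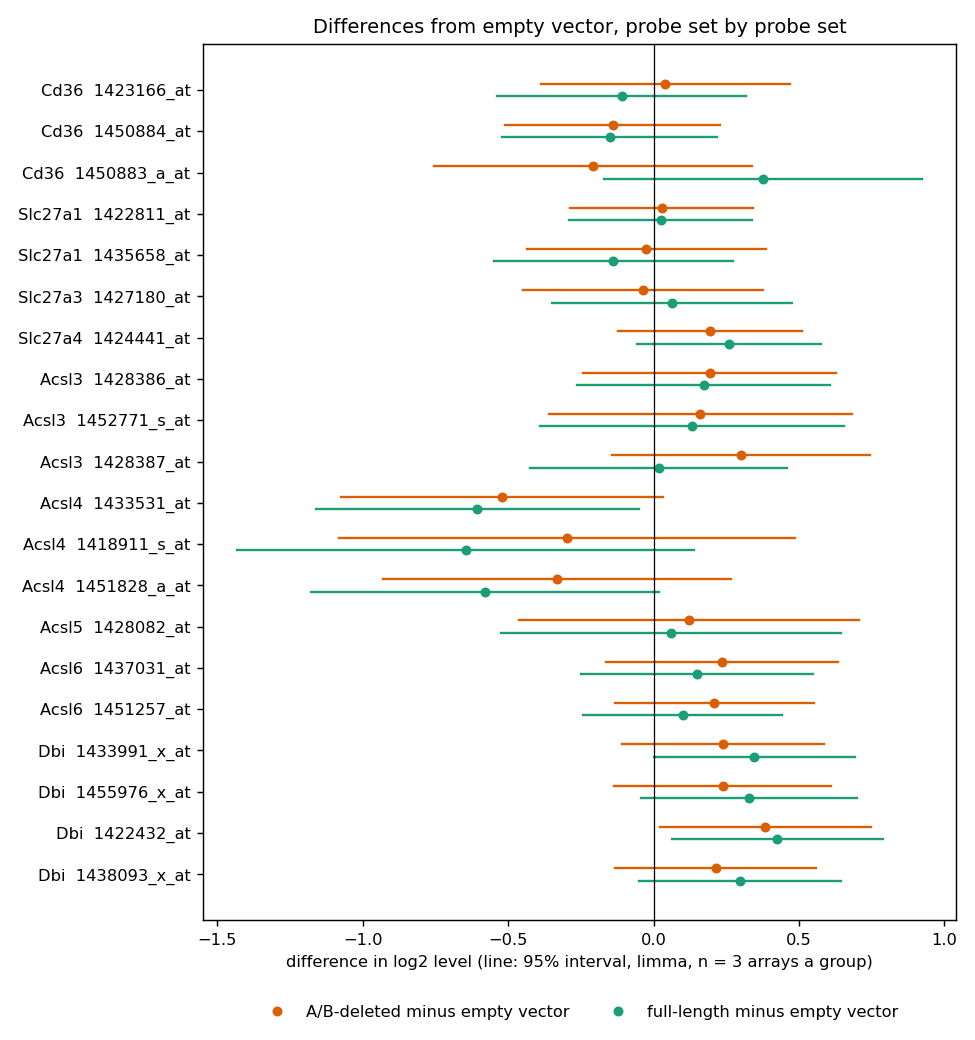
Difference from empty vector of each of the 20 probe sets, with its 95% interval from limma across all probe sets (3 arrays a group), deleted receptor above full-length receptor. All 3 Acsl4 probe sets lie left of 0 and all 4 Dbi probe sets lie right of 0 in both comparisons.

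Dbi, whose product binds acyl-CoA esters and which carries a PPAR response element in its first intron in rodents, read 12.17, 11.94 and 11.78 with the deleted receptor, 12.25, 11.98 and 11.99 with the full-length receptor, against 11.96, 11.56 and 11.65 with empty vector. The full-length arrays all lay above the empty-vector arrays, and the deleted-receptor arrays overlapped them. The difference from empty vector was 0.24 (SE 0.15, 95% interval -0.10 to 0.58, adjusted p = 1.00) with the deleted receptor. It was 0.35 (SE 0.15, 95% interval 0.0037 to 0.69, adjusted p = 0.795, unadjusted p = 0.0480, limma) with the full-length receptor. Without the arrays numbered 3 the differences were 0.29 with the deleted receptor and 0.35 with the full-length receptor. Linearly the level was 1.18 times that of empty vector with the deleted receptor and 1.27 times with the full-length receptor. The receptors differed by -0.11 (95% interval -0.45 to 0.23), and the value was lower with the deleted receptor in all 3 numbers (-0.08, -0.04 and -0.21).

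The 4 Dbi probe sets gave 0.21 to 0.38 with the deleted receptor and 0.30 to 0.43 with the full-length receptor against empty vector, none of them called in the fit without the block. The largest were on 1422432_at, which read 12.10, 11.89 and 11.73 with the deleted receptor, 12.16, 11.85 and 11.83 with the full-length receptor, against 11.79, 11.37 and 11.40 with empty vector. On it the full-length arrays were again all above the empty-vector arrays. The other 3, 1433991_x_at, 1455976_x_at and 1438093_x_at, carry the suffix with which the manufacturer marks probes that may match further transcripts. Their level may include other sequences, and 1433991_x_at stood for Dbi in the fits across genes, save where probe sets were averaged. With the block, Dbi was not called for the deleted receptor against empty vector (adjusted p = 0.350).

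**Figure D4:**
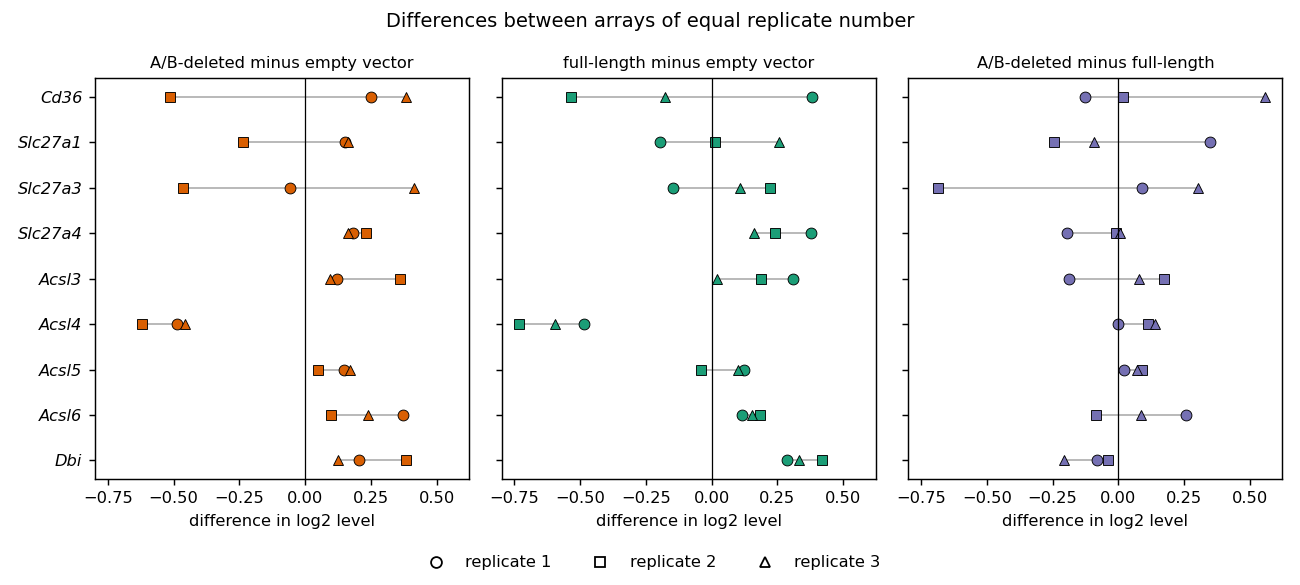
Differences in log2 level between arrays of equal replicate number, gene by gene, in the 3 comparisons, with the symbol giving the number. The numbers were not taken to pair full-length with empty-vector arrays. The 3 Acsl4 points lie between -0.62 and -0.45 for the deleted receptor and between -0.73 and -0.49 for the full-length receptor against empty vector, while those of Cd36 lie on both sides of 0.

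Separation of the arrays by group was counted for the members as a whole. With the deleted receptor 0 of 9 genes had 3 arrays beyond all 3 of empty vector, where 7.89% of all genes had. With the full-length receptor there were 2 of 9, against 9.38% of all genes: Acsl4 lay below, as did 4.86% of all genes, and Dbi above, as did 4.52%. Between the receptors there were 0 of 9, against 5.17%. Over the 20 probe sets there was 1 with the deleted receptor (8.57% of all probe sets), 3 with the full-length receptor (9.34%) and 1 between the receptors (5.91%). In the fit across probe sets 0 of the 20 were called in any comparison, where 0.114% of all probe sets were with the deleted receptor, 0.527% with the full-length receptor and 0% between the receptors. Same-number differences had 1 sign in all 3 numbers for 6 of 9 members with the deleted receptor, 5 of 9 with the full-length receptor and 2 of 9 between the receptors, against 33.8%, 30% and 26% of all genes. The numbers were not taken to pair full-length with empty-vector arrays, so that count does not describe paired differences. Over both comparisons with empty vector, the 95% intervals of the 9 members reached from -1.16 to 0.71.

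Among genes next to these in the route of fatty acids, Fabp4, Lpl and Cpt1a were called in both comparisons with empty vector. Fabp4, which carries fatty acids in the cytosol of adipocytes, read 12.89, 13.15 and 11.04 with the deleted receptor, 13.50, 13.63 and 13.13 with the full-length receptor, against 6.03, 6.02 and 5.39 with empty vector. It rose by 6.54 with the deleted receptor (SE 0.47, adjusted p = 0.000911) and by 7.60 with the full-length receptor (SE 0.47, adjusted p = 0.000237). Its empty-vector values lay below the lowest array median, 6.68, and the table holds no detection calls, so the measured rise may understate the change. Lpl, whose lipase releases fatty acids from lipoproteins, read 10.25, 10.10 and 9.43 with the deleted receptor, 11.40, 11.30 and 11.04 with the full-length receptor, against 7.71, 7.15 and 7.32 with empty vector. For both genes the receptor groups lay above every empty-vector array. Lpl rose by 2.54 with the deleted receptor (SE 0.23, adjusted p = 0.00182) and by 3.86 with the full-length receptor (SE 0.23, adjusted p = 0.000235). Between the receptors Lpl differed by -1.32 (SE 0.23, adjusted p = 0.871, unadjusted p = 0.000238, limma). Its deleted-receptor arrays all lay below the full-length arrays, as did those of 3.14% of all genes. Fabp4 differed by -1.06 and Cpt1a by 0.08, and none of these genes was called between the receptors. Among 11 other uptake and binding genes, Lpl and the intracellular carrier gene Fabp4 were the 2 that rose, in both comparisons, and 9 were not called in the fit without the block. Among 13 genes of enzymes that use acyl-CoA esters, Cpt1a, which makes acylcarnitine for mitochondrial import, was the 1 that rose, by 1.81 with the deleted receptor (adjusted p = 0.00170) and 1.73 with the full-length receptor (adjusted p = 0.00119, SE 0.15 each), and 12 were not called in the fit without the block. The median difference from empty vector was 0.08 with the deleted receptor and 0.13 with the full-length receptor for the uptake list, and 0.09 with the deleted receptor and 0.16 with the full-length receptor for the enzymes.

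**Figure D5:**
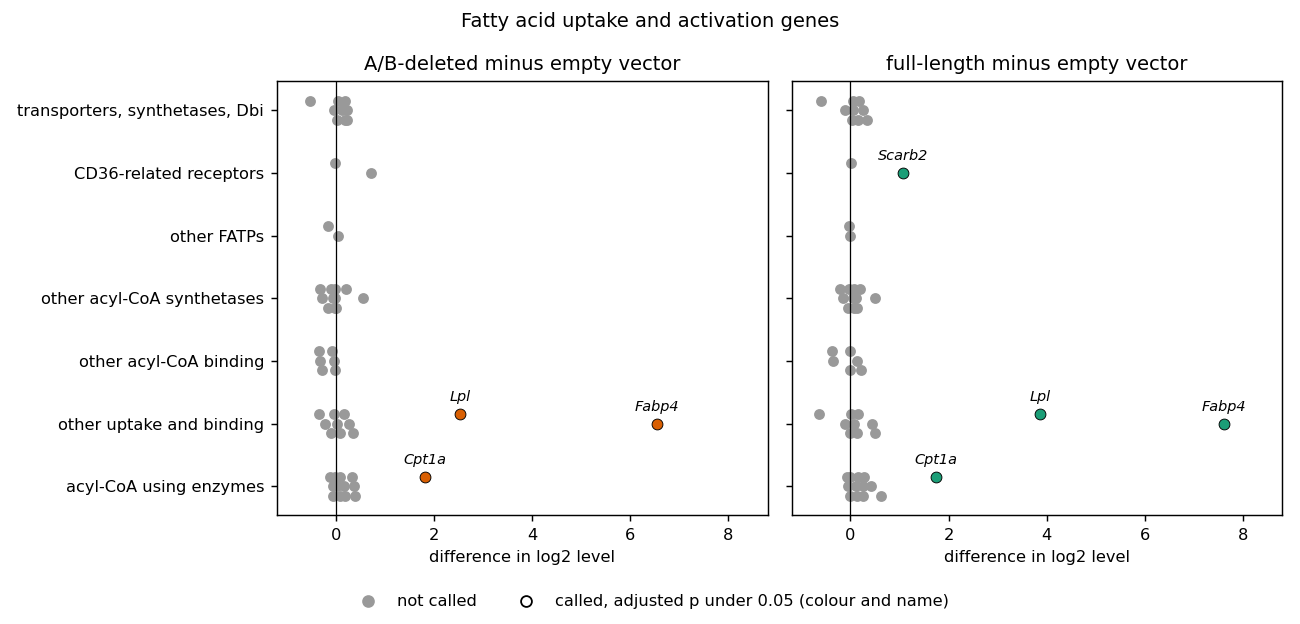
Difference from empty vector of the 9 genes and of related lists (rows), for the deleted receptor on the left and the full-length receptor on the right, 1 point per gene. Called genes are coloured and named, and Fabp4, Lpl and Cpt1a stand far to the right of all 9 members in both panels.

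The CD36 family of class B scavenger receptors has other members in Scarb1 and Scarb2. Scarb1 differed from empty vector by -0.01 with the deleted receptor and 0.02 with the full-length receptor, and was not called. Scarb2, a receptor of the lysosomal membrane, read 10.64, 10.78 and 10.60 with the deleted receptor, 10.91, 11.03 and 11.11 with the full-length receptor, against 10.12, 10.12 and 9.62 with empty vector. The 3 groups did not overlap. Scarb2 rose with the full-length receptor, by 1.07 (SE 0.15, adjusted p = 0.0138), while the difference with the deleted receptor, 0.72 (SE 0.15, adjusted p = 0.233), and that between the receptors, -0.34 (SE 0.15, adjusted p = 1.00), were not called. The full-length call of Scarb2 was lost without full-length replicate 2 (adjusted p = 0.0794, limma), at a difference of 1.06. With the mean of the probe sets of each gene the difference was 0.74 (adjusted p = 0.0310, limma).

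No gene was called in the lists of 2 other transport proteins, 11 other acyl-CoA synthetases and 6 other acyl-CoA binding proteins. At an unadjusted p under 0.05 (limma) there was 1 of these genes in each comparison with empty vector, Acbd4 of the 6 binding proteins. Of all genes 3.79% had such a p with the deleted receptor and 6.19% with the full-length receptor. The medians of the 3 lists were -0.05, -0.02 and -0.18 with the deleted receptor and -0.02, 0.07 and -0.0012 with the full-length receptor against empty vector. Slc27a2 and Slc27a5, transport protein genes of liver and kidney, were at -0.15 and 0.04 with the deleted receptor and at -0.04 and -0.0054 with the full-length receptor. Among the synthetases, Acsbg1, Acsbg2 and Acsm5 were at 0.56, -0.32 and -0.27 with the deleted receptor and at 0.50, 0.10 and 0.07 with the full-length receptor. Among the binding proteins, Acbd4 was at -0.32 with the deleted receptor (adjusted p = 0.652, limma) and -0.35 with the full-length receptor (adjusted p = 0.223, SE 0.09 each). The groups with a receptor lay below empty vector on all arrays. So did 4.03% of all genes with the deleted receptor and 4.86% with the full-length receptor. Dbil5 and Acbd7 were at -0.34 and -0.28 with the deleted receptor and at -0.38 and 0.22 with the full-length receptor. Every value of Slc27a2, Acsm5 and Acbd7 lay below the lowest array median, 6.68.

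Markers of mature adipocytes and of muscle, tissues in which these transporters and synthetases are abundant, were set beside the members. Of 7 adipocyte markers measured, Cidec, which acts in lipid droplet fusion, was the 1 that rose, with the full-length receptor (2.51, SE 0.32, adjusted p = 0.00915). Its empty-vector values, 5.34, 5.19 and 4.93, also lay below the lowest array median. It was at 0.55 (SE 0.32, adjusted p = 1.00) with the deleted receptor. Between the receptors Cidec differed by -1.96 (SE 0.32, adjusted p = 0.871, unadjusted p = 0.000165, limma), which was not called. Its deleted-receptor arrays all lay below the full-length arrays, as did those of 3.14% of all genes. The defining marker Adipoq read 5.40 to 5.63 with the deleted receptor, 5.54 to 5.84 with the full-length receptor and 5.22 to 5.64 with empty vector. Every one of these Adipoq values also lay below the lowest array median. The mean of the 7 markers was 6.12 to 6.26 with the deleted receptor, 6.51 to 6.64 with the full-length receptor and 6.01 to 6.36 with empty vector. That mean includes Cidec. In the full-length group the median difference from empty vector over the 7 markers was 0.10, with 4 markers higher and 3 lower. In the deleted-receptor group this median was -0.02, with 2 markers higher and 5 lower. Against empty vector, 0 of the muscle, fibroblast, macrophage and endothelial markers had an unadjusted p under 0.05 (limma). Of all genes 3.79% had with the deleted receptor and 6.19% with the full-length receptor. Of 9 muscle markers 0 were called, with mean levels of 6.67 to 6.80 with the deleted receptor, 6.70 to 6.96 with the full-length receptor and 6.68 to 6.99 with empty vector. Myh1, Ckm and Myh2 differed from empty vector by -0.21, -0.35 and -0.19 with the deleted receptor and by 0.16, -0.18 and 0.04 with the full-length receptor. The part of these levels in the members' values was not tested.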

How the data were processed

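RNA was measured on 9 arrays, 3 in each of 3 groups, grouped by sample title. The authors deposited 1 log2 value per probe set and array. The submitters' processing notes name RMA, affy and R 2.5.0. Base 2 was inferred from the values: on each array, raising 2 to the deposited value gave multiples of 0.01 (to within 0.01 of that step) for 99.858% of probe sets or more. Arrays have no read depth, and their number limits the precision.

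Of 45101 probe sets, 34945 had 1 gene symbol in the platform annotation and were used, and 9160 with none, 932 with several and 64 controls were left out. Where a gene had several, the one with the highest mean over the arrays stood for it, which gave 18193 genes. Acsl1 had no probe set with its symbol. Values were used as deposited and tested with limma 3.58.1 in R 4.3.3 (3 group means, no block, two-sided, Benjamini-Hochberg over all genes, called under 0.05, with 6 residual and 3.37 prior degrees of freedom), and again over all 34945 probe sets. The script was tested on simulated data. Figures were drawn with matplotlib 3.10.9, in Python 3.11.15. Promoter sequences came from RefSeq (GRCm38.p6).

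The replicate numbers were taken to pair arrays where deviations from the group means correlated above 0.1 in every number. This held for deleted receptor with empty vector (0.520 to 0.708) and for the receptors (0.297 to 0.531), and not for full-length receptor with empty vector (-0.121 to 0.631). The labels do not say what a number marks, and arrays of different number were not compared. Fits with a block applied it to every array in the fit, whichever comparison was read.

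Members and gene lists were chosen with earlier results of these data known. All members and their probe sets are named, as are Pparg, the called genes of each list or otherwise up to 3 with the largest difference, and the 5 genes most like Acsl4, the member with the smallest F-test p. The transporter genes were represented by 1423166_at (Cd36), 1422811_at (Slc27a1), 1427180_at (Slc27a3) and 1424441_at (Slc27a4). The other members were represented by 1428386_at (Acsl3), 1433531_at (Acsl4), 1428082_at (Acsl5), 1437031_at (Acsl6) and 1433991_x_at (Dbi). Vim, Lum, Csf1r, Ptprc, Adgre1, Itgam, Adipoq and Scarb1 were added afterwards. Alternatives were averaging the probe sets of each gene, median subtraction, quantile normalization, genes with a mean of at least 6, a variance trend, the 6 compared arrays alone, the replicate number as a fixed or random block, leaving out each array, and leaving out the arrays numbered 3.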

Additional observations from a re-analysis of the deposited data

How the results depend on the processing

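The 9 genes in 3 comparisons were recomputed under 24 other settings. Of 645 values, 576 kept direction and call, 6 became called, all of them Acsl4 lower against empty vector with the block, and 63 changed sign, none of them called. Cd36 has no value with a minimum mean of 6, which it misses.

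With the replicate number as a fixed block 1 member was called lower in each comparison with empty vector and 1 by the F test. In each case it was Acsl4 (adjusted p = 0.0471 with the deleted receptor and 0.0123 with the full-length receptor, limma). In that fit 0.253% and 1.74% of all genes were called lower. The block was fitted to all 9 arrays, although the numbers of full-length and empty-vector arrays failed the criterion for pairs. Added after seeing the data, the block with quantile normalization also gave 1, 1 and 1, that with probe set means 1 for the full-length receptor and 1 by the F test, and that with median subtraction 1 for the full-length receptor. The share of all genes called is not given here for the blocked F test or these added fits. Their counts therefore cannot be read as a result about the members. The block across probe sets called 4 of 20 for the full-length receptor, the 3 of Acsl4 and 1422432_at of Dbi (adjusted p = 0.0493), where 2.66% of all probe sets were called. With a random block and with each array left out 0 members were called. The block changed no other member's call among genes. In the other lists the block added 2 calls with the full-length receptor against empty vector, Cav1 lower (-0.65, adjusted p = 0.00965) and Dgat2 higher (0.63, adjusted p = 0.0346). The genes of these lists called without the block lost their calls with it and without the arrays numbered 1 or 2 (adjusted p = 0.0580 to 0.299).

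Signs changed as follows. With probe set means, block or not, Cd36 was at -0.10 (deleted against empty), 0.038 (full-length against empty) and -0.14 (between receptors), and Slc27a1 at -0.057 (full-length against empty). With median subtraction, block or not, Slc27a1 was at -0.00054 (full-length against empty). Without the arrays numbered 3, block or not, Cd36 was at -0.13 (deleted against empty) and -0.055 (between receptors), Slc27a1 at -0.041 and -0.093 against empty, and Acsl3 at -0.0064 between receptors. With the block and without the arrays numbered 1, Cd36 and Slc27a1 were at -0.067 and -0.035 (deleted against empty) and Slc27a1 at -0.17 between receptors. Without those numbered 2, Slc27a3 was at 0.18 and -0.018 against empty and 0.20 between receptors, Cd36 at 0.10 (full-length against empty) and Acsl3 at -0.055 between receptors. The cause was not tested.

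Leaving out each array gave these ranges for the differences that changed sign. For deleted receptor against empty vector they were -0.099 to 0.32 (Acsl5), -0.088 to 0.21 (Cd36), -0.072 to 0.15 (Slc27a1) and -0.15 to 0.12 (Slc27a3). For full-length receptor against empty vector they were -0.025 to 0.30 (Acsl3), -0.16 to 0.26 (Acsl5), -0.24 to 0.060 (Cd36), -0.045 to 0.097 (Slc27a1) and -0.079 to 0.15 (Slc27a3). Between receptors they were -0.083 to 0.22 (Acsl3), -0.14 to 0.29 (Acsl4), -0.16 to 0.28 (Acsl5), -0.051 to 0.20 (Acsl6), -0.096 to 0.12 (Slc27a1), -0.21 to 0.056 (Slc27a3) and -0.18 to 0.012 (Slc27a4).

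Over all genes the fixed block called 120 higher and 46 lower with the deleted receptor, against 29 and 2 without it, and 344 and 317 with the full-length receptor, against 91 and 28. The random block called 56 and 12, and 207 and 98. With the 6 compared arrays alone the counts were 20 and 0 with the deleted receptor and 53 and 14 with the full-length receptor, and without the arrays numbered 3 they were 49 and 6, and 121 and 35. Leaving out each array gave 17 to 30 higher and 0 to 4 lower with the deleted receptor, and 44 to 88 higher and 13 to 26 lower with the full-length receptor.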
